A study of Mus musculus with 9 samples.

Results

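The genes described here are 10 members of the activin and bone morphogenetic protein (BMP) signalling system: the ligand subunits Inhba and Inhbb, the activin antagonist Fst, the receptor Acvr2a, the ligands Bmp4 and Bmp7, the receptor Bmpr1b, and the target genes Id1, Id2 and Id3. They were chosen by symbol, and each is read from its brightest single-gene probe set, taken over all 9 arrays. All 10 were measured, by 20 probe sets in all, among 18193 genes. Mouse retinae were dissected, sorted on GFP fluorescence and profiled on Affymetrix arrays, 3 for each of 3 groups. From rhoEGFP mice (genotype rhoGFP) at postnatal day 4 (P4), in which GFP reports the rod pigment gene rhodopsin, both the positive and the negative cells were kept. From pNestin-GFP mice (genotype nestinGFP) at postnatal day 0 (P0), in which GFP reports nestin, a filament of progenitors, positive cells were kept. Every group has a C57BL/6J-129/Ola background, and replicates are labelled biological. The design text gives 6 to 8 mice per replicate, so an array reads a pool of animals and says nothing of single ones.

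Activins are dimers of inhibin beta subunits, beta A from Inhba and beta B from Inhbb, and follistatin, the product of Fst, binds and neutralises them. Activins and BMPs bind paired type II and type I receptors at the cell surface, which pass the signal to SMAD proteins that enter the nucleus, SMAD2 and SMAD3 for activin and SMAD1, SMAD5 and SMAD9 for BMP. The Id genes are widely used as readouts of BMP signalling; their products lack a DNA-binding region and hold E proteins, the partners of proneural bHLH factors, away from DNA. In the retina, BMP ligands pattern the early eye cup, Id proteins are associated with cells that still divide and with glia, and activin has been linked to photoreceptor differentiation in culture.

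Values are log2 signals, in which 1 unit is a 2-fold step, and the table has no detection calls. A difference was called at a limma adjusted p below 0.05 and at least 2-fold, and a change is written as a rise or fall only where it was called. The groups matched their labels on marker genes: 8 of 8 measured rod genes were called higher in the rhoGFP-positive than in either other group, and 9 of 11 progenitor genes were called lower there in both comparisons. Array medians over probe sets with 1 gene symbol lay between 6.43 and 6.60, and the median standard error of a difference was 0.14. The mean of the 18S ribosomal RNA control probe sets was 12.1 to 13.6 on the replicate 1 arrays of the 3 groups and 9.65 to 10.4 on the 6 other arrays. The actin 3' minus 5' difference, a sign of RNA integrity, was 0.91 ± 0.064 (SD, n = 3) for rhoGFP-positive cells, against 0.65 ± 0.021 for rhoGFP-negative and 0.67 ± 0.30 for nestinGFP-positive ones; its part in the differences was not tested. A gene can read lower in a fraction because fewer of its cells express it or because each holds less of its RNA, and these sorted pools cannot tell the cases apart.

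Promoter windows of 300 bases, 250 before and 50 after an annotated start, were at hand for 7 of the 10 genes from RefSeq (GRCm38.p6). Those of Id2 (chr12:25096043-25096342, minus strand), Id3 (chr4:136143572-136143871, plus strand) and Inhbb (chr1:119422199-119422498, minus strand) are shown because Id2 and Id3 fell in the same comparisons while Inhbb did not. Capitals mark matches on either strand to GGCGCC, a palindrome bound by SMADs in BMP-responsive elements, to the GC box GGGCGG and to CCAAT, which was added to the search after the windows were read.
Id2: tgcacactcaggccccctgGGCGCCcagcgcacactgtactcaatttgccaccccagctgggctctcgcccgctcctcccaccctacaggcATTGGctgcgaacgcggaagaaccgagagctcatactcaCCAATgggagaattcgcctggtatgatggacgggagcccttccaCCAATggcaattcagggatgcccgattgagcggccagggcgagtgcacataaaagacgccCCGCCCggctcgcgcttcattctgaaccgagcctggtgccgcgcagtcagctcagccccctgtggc
Id3: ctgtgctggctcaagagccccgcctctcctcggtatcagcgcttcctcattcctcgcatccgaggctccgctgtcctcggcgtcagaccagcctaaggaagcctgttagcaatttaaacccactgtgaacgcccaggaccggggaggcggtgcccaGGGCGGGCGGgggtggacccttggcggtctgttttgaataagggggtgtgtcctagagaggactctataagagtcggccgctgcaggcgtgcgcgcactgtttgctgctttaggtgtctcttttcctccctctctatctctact
Inhbb: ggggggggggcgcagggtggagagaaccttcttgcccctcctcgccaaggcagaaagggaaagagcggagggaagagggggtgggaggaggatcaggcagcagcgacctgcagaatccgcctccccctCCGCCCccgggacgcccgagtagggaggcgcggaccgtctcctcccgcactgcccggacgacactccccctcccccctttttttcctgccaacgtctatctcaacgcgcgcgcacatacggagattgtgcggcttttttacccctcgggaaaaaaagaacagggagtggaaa
The Id2 window held 1 GGCGCC, 1 GGGCGG and 3 CCAAT matches. That of Id3 held 2 GGGCGG matches, which overlap each other, and 0 of the other 2 motifs, and that of Inhbb held 1 GGGCGG match. Among all 32851 windows in the table, 11.9% held GGCGCC, 35.7% GGGCGG and 37.4% CCAAT. The motif CAGAC, which contains a short SMAD-binding element, occurred at 2 places in the Id3 window and at 0 in those of Id2 and Inhbb, and 49.6% of all windows held it. Also searched were CANNTG and TATAAA, which 72.3% and 13.6% of all windows held. CANNTG had 1 match in the Id2 window and 0 in those of Id3 and Inhbb, and TATAAA had 0 in each. The windows of Bmpr1b, which fell too, are not shown. They held 0 GGCGCC and 0 GGGCGG matches, and 1 of them held CCAAT.

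The comparison of the rhoGFP fractions asks what sets rod-reporter cells apart from other cells of P4 retinae of the same line. In it, 4 of the 10 genes fell in the rhoGFP-positive cells, Id1, Id2, Id3 and Bmpr1b, 0 rose, and 6 were not called. Across all genes limma called 10.9%, with 7.32% lower and 3.61% higher. Against nestinGFP-positive cells at P0 the same 4 genes fell in the rhoGFP-positive cells and Inhbb rose. Limma called 15.6% of all genes there, with 10.5% lower and 5.06% higher. Between rhoGFP-negative cells and those of the nestinGFP-positive group Inhbb alone among the 10 was called, higher in the former. There 0.989% of all genes were called, with 0.385% higher and 0.605% lower. These were 180 genes, or 453 with the replicate number as a block. By adjusted p without a minimum fold, 4, 5 and 1 of the 10 passed in the 3 comparisons, against 24.3%, 35.8% and 2.03% of all genes. In the first, 5 genes had rhoGFP-positive arrays all below the others, as did 20.3% of all genes. In the second, 5 lay below and 1 above, against 23.4% and 24.4%, and in the third 3 lay below and 2 above, against 8.79% and 11.8%. Of the 20 probe sets 5, 6 and 1 were called, against 9.05%, 13.6% and 0.607% of 34945. The first 2 comparisons share the rhoGFP-positive arrays and are given side by side. In both comparisons with the nestinGFP-positive cells, reporter line, age and sorted population differ together and cannot be told apart.

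**Figure D1:**
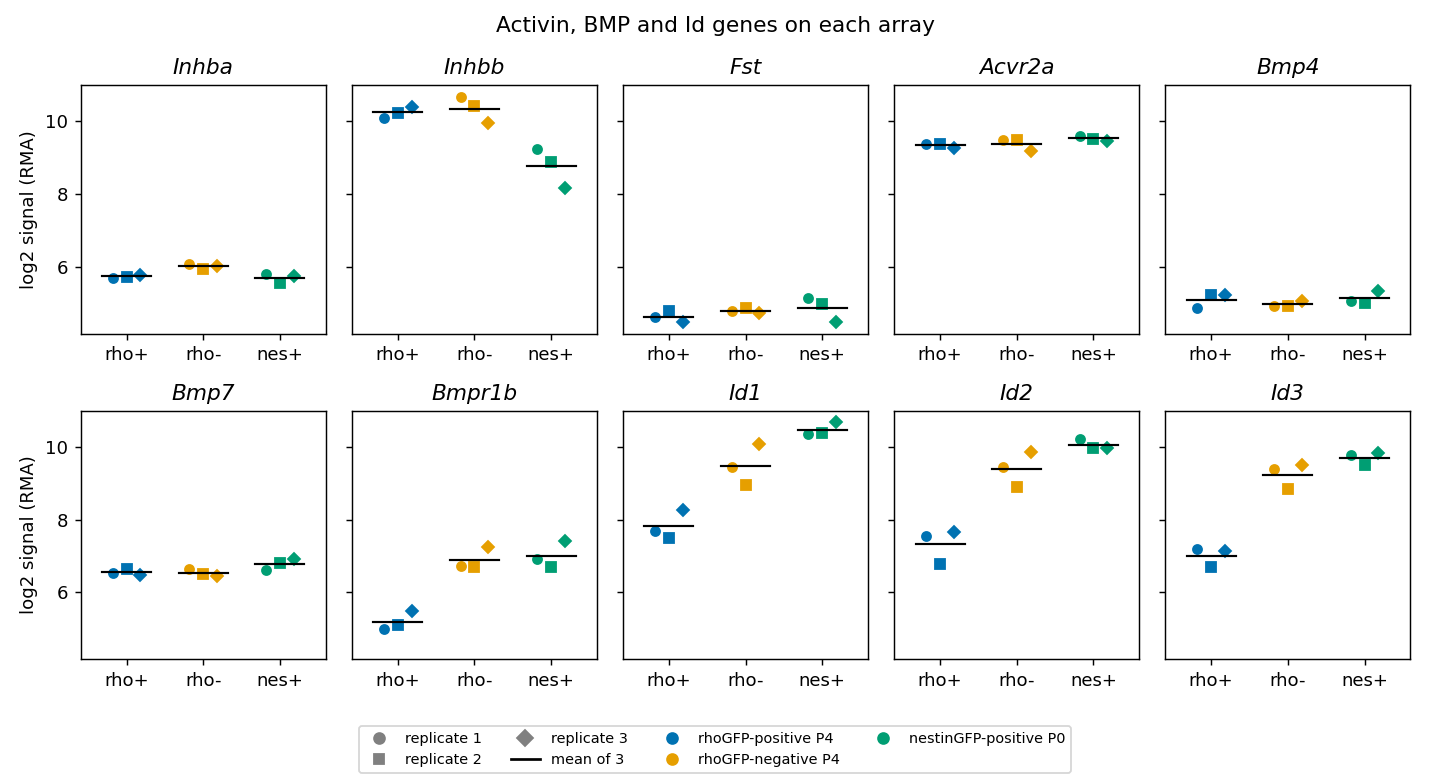
Each panel plots the log2 signal of 1 gene on the 9 arrays, with rho+ for rhoGFP-positive P4, rho- for rhoGFP-negative P4 and nes+ for nestinGFP-positive P0, symbols for replicates 1 to 3 and a bar at the mean of 3. Id1, Id2, Id3 and Bmpr1b lie lower on every rhoGFP-positive array than on any other, Inhbb lies lowest on the nestinGFP-positive arrays, and the remaining 5 genes differ little between groups.

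Id3 stood at 7.20, 6.69 and 7.15 on replicates 1, 2 and 3 of the rhoGFP-positive group. The rhoGFP-negative arrays gave 9.39, 8.83 and 9.49, and the nestinGFP-positive arrays 9.77, 9.50 and 9.82. No rhoGFP-positive array came near the other 6, and every nestinGFP-positive array was above every rhoGFP-negative one by a narrow margin. Id3 was 4.68-fold lower in the rhoGFP-positive than in the rhoGFP-negative cells (log2 difference -2.23 ± 0.20 SE, limma adjusted p = 3.73e-05). Against the nestinGFP-positive cells it was 6.44-fold lower (-2.69 ± 0.20, limma adjusted p = 8.08e-06). The rhoGFP-negative minus nestinGFP-positive difference of -0.46 ± 0.20 was not called (limma adjusted p = 0.262).

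Id2 read 7.54, 6.78 and 7.65 on the rhoGFP-positive arrays in replicate order. It read 9.46, 8.89 and 9.85 on the rhoGFP-negative and 10.21, 9.95 and 9.96 on the nestinGFP-positive arrays. The group order was that of Id3, and the 3 groups did not overlap. Id2 was 4.22-fold lower than in the rhoGFP-negative cells (-2.08 ± 0.27, limma adjusted p = 0.000376) and 6.59-fold lower than in the nestinGFP-positive cells (-2.72 ± 0.27, limma adjusted p = 4.29e-05). Its second probe set gave -2.40 and -3.13, both called, and its other, a dim one, gave -0.24 and -0.67 with no call. On both of these probe sets the rhoGFP-negative arrays overlapped the nestinGFP-positive ones.

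Id1 read 7.68, 7.50 and 8.25 on the rhoGFP-positive, 9.44, 8.95 and 10.07 on the rhoGFP-negative and 10.34, 10.37 and 10.68 on the nestinGFP-positive arrays. Here too the groups did not overlap, and the gap between the last 2 groups was wider than for Id2 and Id3. Id1 was 3.19-fold lower in the rhoGFP-positive than in the rhoGFP-negative cells (-1.67 ± 0.28, limma adjusted p = 0.00162) and 6.31-fold lower than in the nestinGFP-positive cells (-2.66 ± 0.28, limma adjusted p = 5.78e-05). The rhoGFP-negative minus nestinGFP-positive difference of -0.98 ± 0.28 was not called (limma adjusted p = 0.0979). Without replicate 3 of the rhoGFP-negative group it was -1.27 and was called (limma adjusted p = 0.0182). The 3 genes whose rhoGFP-negative arrays all lay below the P0 arrays were Id1, Id2 and Id3, for Id2 on its brightest probe set only.

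Replicate 3 of the rhoGFP-negative group held the highest Id1, Id2 and Id3 signals of its group. On the same array the median of 9 genes of cell division, such as Mki67 and Top2a, was 10.37, against 8.52 and 8.82 on replicates 1 and 2 and 10.77 to 10.79 on the nestinGFP-positive arrays. Between rhoGFP-negative replicates 1 and 2 the orders were opposite. Replicate 1 had the lower division median and the higher Id1, Id2 and Id3 signals. In the rhoGFP-positive group the division median was 7.66 on replicate 3 against 6.71 and 6.37 on replicates 1 and 2. There Id1 and Id2 were highest on replicate 3, and Id3 on replicate 1. The progenitor median moved less, at 11.28 on rhoGFP-negative replicate 3 against 10.88 and 10.52. The part of dividing cells in the Id signals was not tested.

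**Figure D2:**
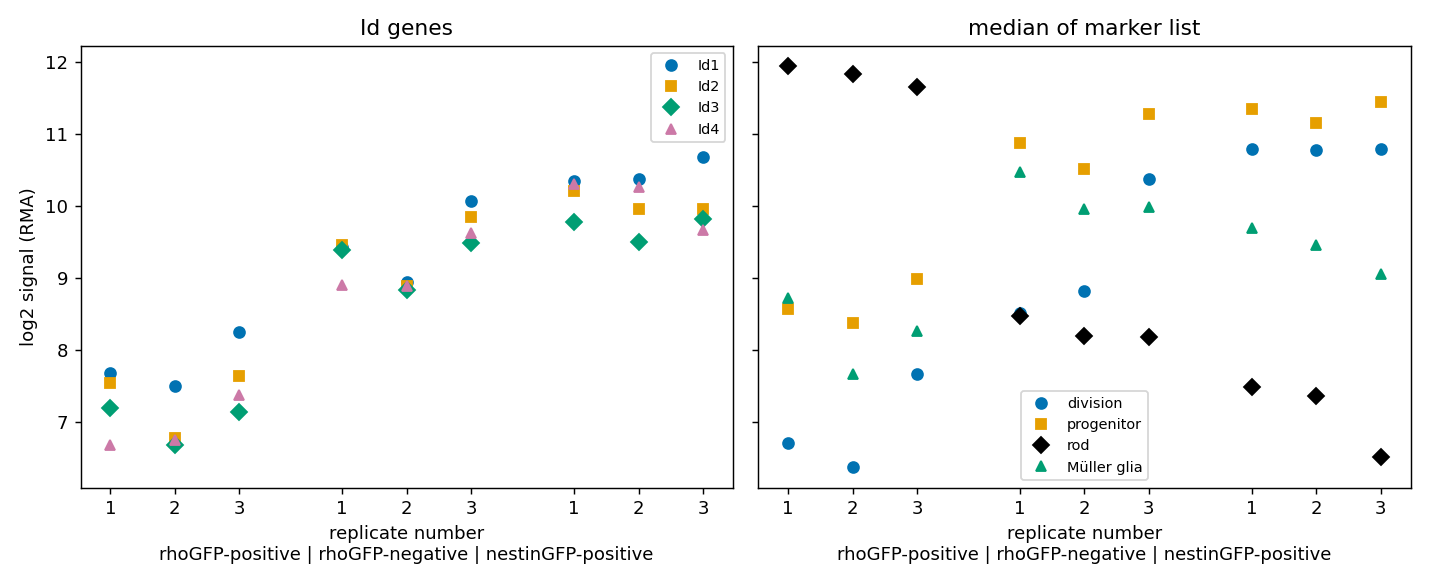
The left panel plots the log2 signals of Id1 to Id4 on the 9 arrays in 3 blocks by group, and the right panel the median log2 signal of the division, progenitor, rod and Müller glia marker lists on the same arrays. The Id signals are lowest in the block of rhoGFP-positive arrays, where the rod median is at 11.65 to 11.95, and replicate 3 of the rhoGFP-negative group is raised in both the Id and the division values. Between rhoGFP-negative replicates 1 and 2, Id1 to Id3 and the division median run in opposite order.

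Bmpr1b encodes a type I receptor for BMPs. It read between 4.996 and 5.47 on the rhoGFP-positive arrays, with replicate 2 at 5.09. It read 6.71, 6.71 and 7.23 on the rhoGFP-negative and 6.91, 6.71 and 7.42 on the nestinGFP-positive arrays. The rhoGFP-positive arrays lay apart from both other groups, which overlapped. All 3 of them were below 6.26, the 40th percentile of mean signal, so the folds rest on dim signals in that group and their size is uncertain. Bmpr1b was 3.24-fold lower in the rhoGFP-positive than in the rhoGFP-negative cells (-1.70 ± 0.22, limma adjusted p = 0.000341) and 3.54-fold lower than in the nestinGFP-positive cells (-1.82 ± 0.22, limma adjusted p = 0.000133). Only 1 of its 3 probe sets showed this: the 2 others, with group means of 2.77 to 4.44, gave differences of -0.06 and -0.18 in the first comparison and 0.10 and 0.01 in the second. With the mean of the 3 the differences were -0.65 and -0.57, short of 2-fold and so not called.

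Inhbb encodes the beta B subunit of activin B. On replicates 1, 2 and 3 it read 10.10, 10.23 and 10.39 in the rhoGFP-positive, 10.66, 10.40 and 9.94 in the rhoGFP-negative and 9.25, 8.88 and 8.15 in the nestinGFP-positive group. Both P4 fractions overlapped, and all 6 of their arrays stood above the 3 P0 arrays. Inhbb was 2.78-fold higher in the rhoGFP-positive than in the nestinGFP-positive cells (1.48 ± 0.27, limma adjusted p = 0.00181) and 2.98-fold higher in the rhoGFP-negative cells (1.57 ± 0.27, limma adjusted p = 0.0248). The rhoGFP fractions differed by -0.10 ± 0.27 with no call (limma adjusted p = 0.86). Its second probe set was also higher on every P4 array, with smaller differences of 0.52 and 0.39 from the P0 cells, so the mean of both, at 1.00 and 0.98, missed the 2-fold minimum. The call between rhoGFP-negative and P0 cells was also lost without rhoGFP-negative replicate 1 or 2 or nestinGFP-positive replicate 2 (limma adjusted p = 0.0888, 0.0862 and 0.0933) and when only those 6 arrays were fitted (limma adjusted p = 0.0849).

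Inhba, Fst and Bmp4 were dim in their mean over all 9 arrays, below the same percentile (6.26). Inhba, for the beta A subunit of activin A, had arrays at 5.69 to 5.78 in the rhoGFP-positive, 5.94 to 6.08 in the rhoGFP-negative and 5.55 to 5.79 in the nestinGFP-positive group. The rhoGFP-negative arrays were all above the others, but the differences of -0.28 ± 0.10 and 0.32 ± 0.10 were not called (limma adjusted p = 0.0742 and 0.139), and a second probe set did not share the order. Fst, for follistatin, ran from 4.46 to 4.77, 4.72 to 4.88 and 4.48 to 5.15 in the same group order, and all groups overlapped. Its second probe set was lower by 0.99 ± 0.21 in the rhoGFP-positive than in the nestinGFP-positive cells, just short of 2-fold (limma adjusted p = 0.00576 over 34945 probe sets).

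Acvr2a encodes a type II receptor that binds activins and some BMPs. Its arrays ran from 9.27 to 9.38 in the rhoGFP-positive, 9.18 to 9.49 in the rhoGFP-negative and 9.46 to 9.59 in the nestinGFP-positive group. Only the first and last did not overlap, and the 3 differences, from -0.19 to -0.04, were not called (limma adjusted p = 0.848, 0.23 and 0.572). A dimmer second probe set gave a stepwise order instead, from 5.99 to 6.11 over 6.48 to 6.49 to 6.71 to 7.04, in which no groups overlapped. Its difference was -0.44 ± 0.11 against the rhoGFP-negative cells (limma adjusted p = 0.0254) and -0.77 ± 0.11 against the nestinGFP-positive cells (limma adjusted p = 0.000839), each under 2-fold.

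Among the BMP ligands, Bmp4, a dorsal signal of the early eye, lay between 4.86 and 5.21 in the rhoGFP-positive, 4.92 and 5.06 in the rhoGFP-negative and 5.01 and 5.32 in the nestinGFP-positive cells, and all groups overlapped. Its differences ran from -0.17 to 0.13. Bmp7, a ligand needed for early eye formation, lay between 6.47 and 6.64, 6.46 and 6.64, and 6.61 and 6.90 in the same order, and was not called (limma adjusted p = 0.946, 0.144 and 0.291 in the 3 comparisons). Its 2 dimmer probe sets were each higher on every P0 array than on any P4 array, by 0.63 and 0.23 against the rhoGFP-positive and by 0.88 and 0.41 against the rhoGFP-negative cells, with no call.

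**Figure D3:**
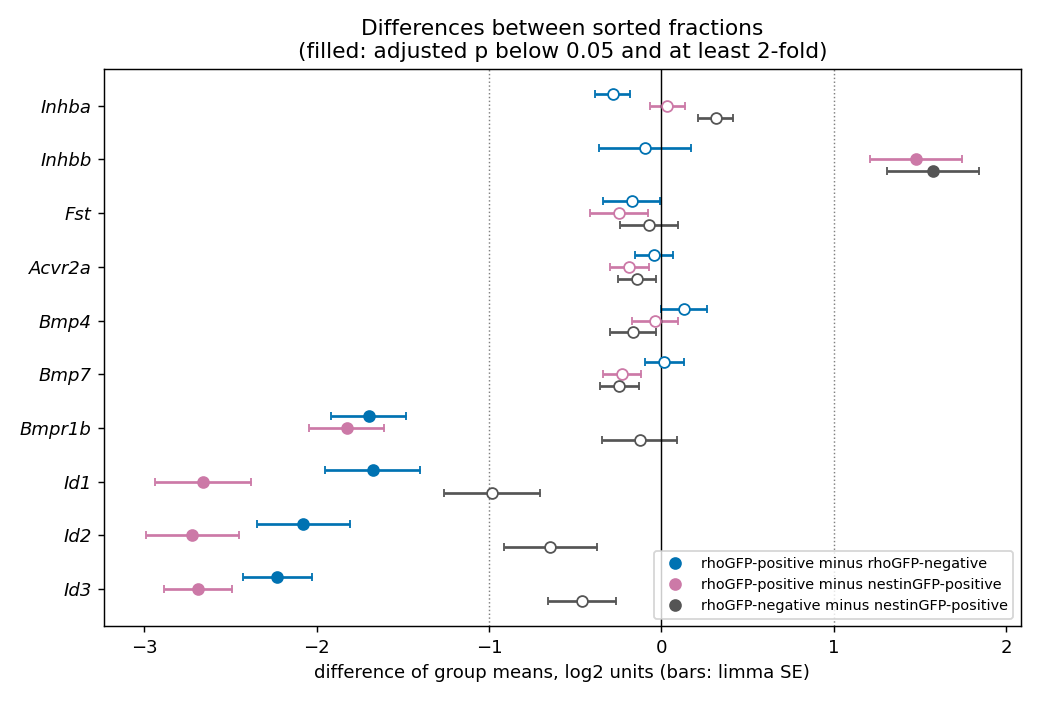
Each point is the log2 difference of 2 group means for 1 gene with its limma standard error, in 3 colours for the 3 comparisons, filled where called, and dotted lines mark a 2-fold difference. The 3 Id genes and Bmpr1b lie beyond the line on the lower side in both comparisons of the rhoGFP-positive cells, and Inhbb lies beyond it on the upper side in both comparisons with nestinGFP-positive cells.

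**Figure D4:**
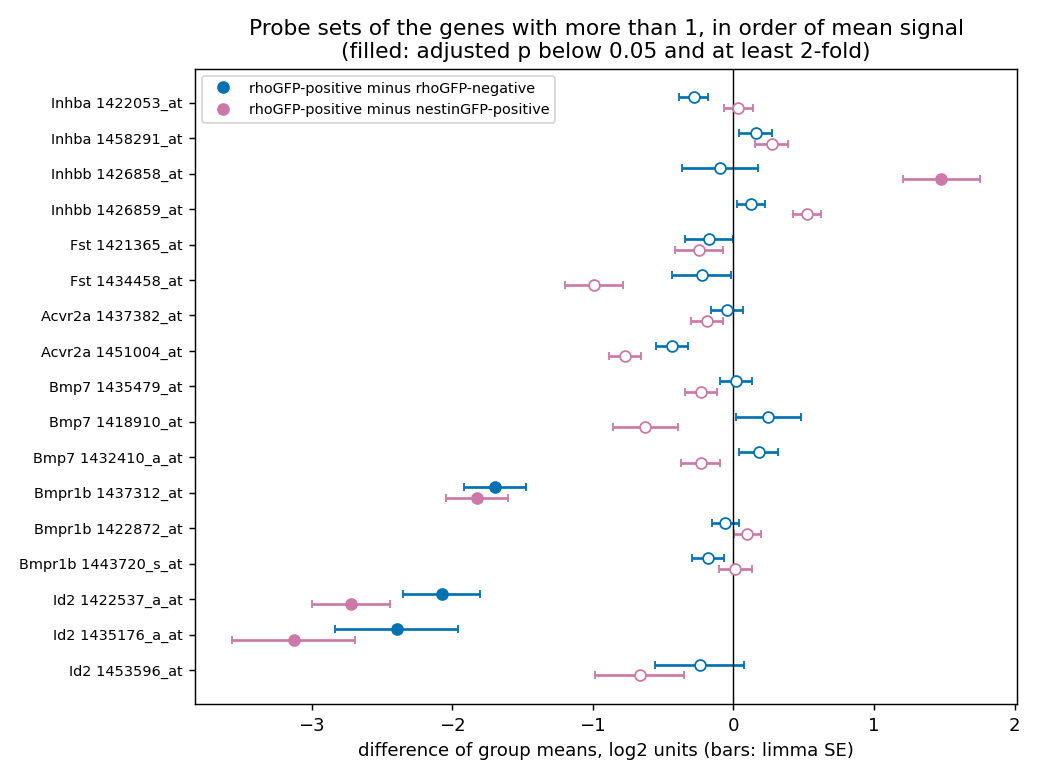
The log2 differences of each probe set are plotted with limma standard errors for the 7 genes with several of them, ordered by mean signal within a gene and filled where called in the fit over 34945 probe sets. For Id2 the brightest 2 of 3 probe sets are called in both comparisons, whereas 1 of 3 carries the fall of Bmpr1b.

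The other genes of the pathway were read from 8 lists by role with 78 measured genes. In the rhoGFP-positive against the rhoGFP-negative cells 13 of the 78 fell and 1 rose, where 7.32% of all genes fell and 3.61% rose. The median log2 difference was -0.11, and that of all genes was 0.01. Against the nestinGFP-positive cells 14 of the 78 fell and 0 rose, where 10.5% of all genes fell and 5.06% rose. The median was -0.08 against 0.06 for all genes. Between rhoGFP-negative and P0 cells limma called 0 of the 78, where 0.989% of all genes were called, with a median of 0.08 against 0.03. Without rhoGFP-negative replicate 3 it called 1, Id4. At an unadjusted p below 0.05, 11 of the 78 passed there, as did 3285 of all 18193 genes, a larger share. By role, the called genes of the first comparison were 3 of 14 in the activin arm, 2 of 8 BMP receptors and co-receptors, 2 of 14 BMP antagonists, 2 of 10 in the TGF-beta arm, 3 of 14 SMADs and regulators, 2 of 4 in the group of Id4 and the E proteins and 0 of 5 further targets. In the second they were 1, 2, 2, 2, 3, 3 and 1 in that order. Each list is small, and 10.9% and 15.6% of all genes were called in the 2 comparisons.

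On the ligand side, 0 of 9 other BMP ligands was called in either comparison, with differences between -0.36 and 0.26. All of them but Gdf2 and Gdf10 were dim, with a mean over all 9 arrays below 6.26, where the arrays limit what can be seen. Tgfb2, a TGF-beta ligand, was the largest fall in the first comparison: its arrays read 7.42, 6.27 and 6.63 in the rhoGFP-positive, 9.93, 9.33 and 9.41 in the rhoGFP-negative and 9.52, 9.09 and 9.05 in the nestinGFP-positive group. No rhoGFP-positive array reached the other groups, and Tgfb2 was 6.89-fold and 5.46-fold lower there (-2.78 ± 0.28 and -2.45 ± 0.28, limma adjusted p = 7.9e-05 and 0.000106). Inha, which encodes the alpha subunit of the activin antagonist inhibin, was the single pathway gene that rose, 2.05-fold over the rhoGFP-negative cells (1.03 ± 0.23, limma adjusted p = 0.00883). Its arrays read 8.02, 8.61 and 8.58 against 7.07, 7.65 and 7.39, and 7.57, 8.03 and 8.31 in the nestinGFP-positive group, which overlapped both. The difference was under 2-fold without rhoGFP-positive replicate 2 or 3 or without rhoGFP-negative replicate 1, at 0.93, 0.95 and 0.88. Fstl1, a secreted follistatin-like protein, was 4.90-fold and 7.51-fold lower in the rhoGFP-positive than in the rhoGFP-negative and nestinGFP-positive cells (-2.29 ± 0.22 and -2.91 ± 0.22, limma adjusted p = 6.06e-05 and 9.47e-06).

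Among receptors, Acvr1, a type I receptor for BMPs and activin, fell as Bmpr1b did. It read 6.66, 6.17 and 6.30 in the rhoGFP-positive against 8.21 to 8.70 in the rhoGFP-negative and 8.21 to 8.65 in the nestinGFP-positive group, a 4.06-fold and a 4.18-fold difference (limma adjusted p = 3.47e-05 and 1.87e-05). Both other groups overlapped for Acvr1, as for Bmpr1b. The other called gene of that list, the BMP co-receptor Rgma, also fell in both comparisons, 2.08-fold and 2.28-fold (-1.06 ± 0.15 and -1.19 ± 0.15, limma adjusted p = 0.000526 and 0.000156). Rgma was dim, with a mean over all 9 arrays below 6.26 and rhoGFP-positive arrays at 5.35 to 5.49, so the size of its folds is uncertain. Rgma and the receptors that follow are outside the naming rule and were picked after their values were seen. The type I receptor Bmpr1a differed by -0.36 and -0.41, the type II receptor Bmpr2 by -0.28 and -0.20, and the activin type I receptor Acvr1b by 0.48 and 0.45, each under 2-fold.

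Of the signal carriers, Smad3, which relays activin and TGF-beta signals, was 3.97-fold and 4.82-fold lower in the rhoGFP-positive cells (-1.99 ± 0.14 and -2.27 ± 0.14, limma adjusted p = 1.06e-05 and 2.82e-06). With the mean of its probe sets the Smad3 differences were each -0.70 and under 2-fold. Smad2, named after its value was seen, fell by 1.19 ± 0.17 against the rhoGFP-negative cells (limma adjusted p = 0.000754) and differed by -0.78 ± 0.17 from the nestinGFP-positive cells, under 2-fold and not called (limma adjusted p = 0.00614). The BMP carriers Smad1 and Smad5, also named afterwards, differed by 0.05 and -0.43 in the first comparison and by 0.09 and -0.40 in the second with no call. The homeobox corepressors Tgif1 and Tgif2, which bind SMADs, fell as well: Tgif1 at -2.09 ± 0.26 and -1.97 ± 0.26, and Tgif2 at -1.81 ± 0.18 and -2.13 ± 0.18.

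Id4, the remaining Id gene, read 6.68, 6.76 and 7.38 in the rhoGFP-positive, 8.90, 8.90 and 9.63 in the rhoGFP-negative and 10.30, 10.27 and 9.67 in the nestinGFP-positive group. Its groups did not overlap and followed the order of Id1, Id2 and Id3, with a fall in both comparisons (-2.20 ± 0.26 and -3.14 ± 0.26, limma adjusted p = 0.000227 and 1.6e-05). Of the 3 E protein genes, whose products Id proteins bind, 1 fell in the first comparison and 2 in the second: Tcf4, 2.84-fold and 2.05-fold lower, was called in both comparisons, Tcf3 at -0.94 and -1.15 in the second, and Tcf12 at -0.23 and -0.14 in neither. These E protein genes were named after their values were seen.

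**Figure D5:**
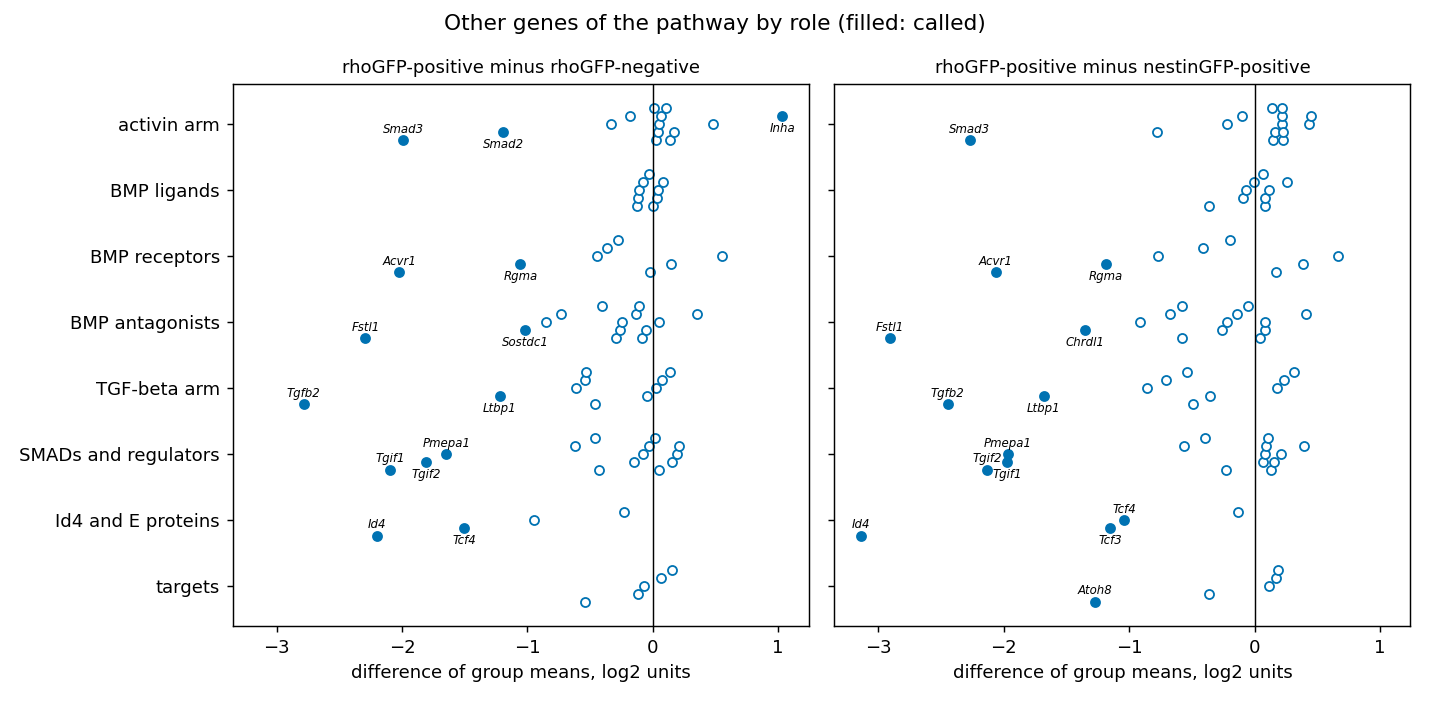
Each circle is 1 of the 78 other pathway genes, placed by its log2 difference between group means within its role, for the rhoGFP-positive minus rhoGFP-negative cells on the left and minus nestinGFP-positive cells on the right, filled and named where called. Called genes lie on the lower side except Inha, and no other BMP ligand was called, though all of these ligands but Gdf2 and Gdf10 were dim.

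The genes whose log2 signals ran most like each member over the 9 arrays were found by Pearson's r, which here mostly follows the group means and carries no test. For Id1 they were Mcm3 and Mcm5 (r = 0.997 and 0.996), subunits of the replicative helicase, the former also in the division list, for Id2 Pmp22 and the endothelin receptor Ednrb (0.997 and 0.995), and for Id3 Ednrb and Gpx8 (0.996 and 0.995). For Bmpr1b they were Ttc23 and Smo (0.993 each), the latter the signal transducer of the hedgehog pathway, and for Inhbb Kcne1l and Zfp658 (0.989 and 0.984). The closest genes to the uncalled members reached 0.925 (Dmgdh, to Inhba), 0.935 (Bag4, to Fst), 0.933 (Slc12a8, to Acvr2a), 0.952 (Peg3, to Bmp4) and 0.927 (Lrrfip2, to Bmp7), followed by Txndc16, Cdc23, Tmem178, Tmc4 and Bclaf3 at 0.90 to 0.941.

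Marker genes of other cell types differed between the groups as well. Of 10 genes of Müller glia 6 fell and 1, Clu, rose in each comparison of the rhoGFP-positive cells, and the list median was 7.67 to 8.73 there against 9.96 to 10.48 in the rhoGFP-negative and 9.05 to 9.70 in the nestinGFP-positive group. Of 13 endothelial and mural genes 4 fell in each, Kdr, Cldn5, Col4a1 and Col4a2, while the list median was 5.69 to 5.97, 6.04 to 6.20 and 5.76 to 6.25. Of 5 astrocyte genes 1 fell in each, Pdgfra, with medians of 4.99 to 5.24, 5.17 to 5.36 and 4.99 to 5.53. Of 8 genes of the ciliary margin 2 fell in each, and the medians were 5.89 to 6.49, 6.36 to 6.53 and 6.23 to 6.43. Of 10 microglia genes 0 and 1 were called, with medians of 5.58 to 6.65, 5.59 to 5.91 and 5.01 to 5.63, and of 10 pigment epithelium genes 2 rose in each and 1, Mitf, fell in the second, with medians of 6.35 to 6.42, 5.45 to 5.71 and 5.70 to 5.77. Of 8 amacrine genes 7 fell in the first comparison, and 6 fell and 1 rose in the second, with medians of 6.72 to 7.88, 8.71 to 9.46 and 9.32 to 9.79. Of 9 ganglion cell genes 4 fell in each. Of 5 horizontal cell genes 2 and 1 fell, and of 8 bipolar cell genes 3 and 1 fell and 1 rose in each. Of the 9 division genes 8 fell in the first comparison and 9 in the second. In rhoGFP-negative against P0 cells limma called 0 of these 9, though all 9 differences were negative, from -1.88 to -0.79. Each had a limma unadjusted p below 0.05 there, as did 3285 of all 18193 genes. Between rhoGFP-negative and P0 cells, where Inhbb was called higher, 5 marker genes of these and the rod list were called higher as well, Nrl (1.48), Lhx4 (1.68), Pcp2 (1.45), Apoe (1.09) and Neurod2 (1.02), and 3 lower, Col9a1 (-1.46), Rbpms (-1.40) and Mitf (-1.23), each given as a log2 difference. The part of these cells in the signals of the 10 genes was not tested. Without the replicate 1 arrays of all 3 groups, whose 18S signal stood apart, an alternative chosen after seeing the data, the counts were again 4 fallen genes in the first comparison, 4 fallen and 1 risen in the second, and 1 risen in the last.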

How the data were processed

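Gene expression was measured on 9 Affymetrix arrays, 3 for each group. The authors deposited log2 values made with RMA, according to the submitters' processing notes (version not given in the sources used here), a method that subtracts background, equalises arrays and combines probes, with low signals compressed. Of 45101 probe sets, 64 were controls; 34945 others had 1 gene symbol and 932 several, and symbols were updated through Entrez identifiers for 34741. All columns were used, and no array copied another. Two-sided tests came from limma 3.58.1 (R 4.3.3), with 1 linear model of 3 group means over 9 arrays and eBayes, and p was adjusted by Benjamini and Hochberg over 18193 genes, or over 34945 probe sets where each probe set is given. The steps were tested on simulated data. Figures used matplotlib 3.10.9.

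The 10 genes, the lists and the tests were chosen with earlier results of these data known. Named pathway genes were those with non-overlapping arrays and the 5 largest called differences each way per comparison, and likeness named the 2 genes with the highest r, passing over clone and model names; others are marked where named. Groups share replicate numbers, but no label ties a number to a shared pool. The main fit therefore treated arrays as unpaired, and a block on the replicate number was an alternative. For same-numbered arrays, deviations from group means had r = 0.62, 0.45 and 0.45 in the first comparison. In the second, r was 0.52, -0.0081 and 0.25, and in the last 0.54, 0.15 and 0.23. Differently numbered arrays had r of -0.49 to 0.074, -0.45 to 0.39 and -0.39 to 0.22 in that order. In the second and last, lines and ages differ, so a number cannot mark a shared pool of animals. Alternatives were the mean of probe sets, other probe set kinds, further normalizations, a filter on dim genes, fewer arrays, the replicate block, other eBayes settings and thresholds. Leaving out the replicate 1 arrays and testing each probe set were chosen after seeing the data. The number of arrays limits precision.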

Additional observations from a re-analysis of the deposited data

How the results depend on the processing

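The 4 falls and 0 rises among the 10 genes between the rhoGFP fractions were the count under every alternative except the mean of probe sets, which gave 3. Against the nestinGFP-positive group the 5 calls became 3 with the mean of probe sets and 5 under the others. Between rhoGFP-negative and P0 cells the 1 call became 0 with the mean of probe sets, with the 6 arrays compared alone and at an adjusted p below 0.01, and ran from 0 to 2 when 1 array was left out; the count of other pathway genes ran from 0 to 1 and that of all genes, 180, from 19 (without nestinGFP-positive replicate 2) to 559 (without rhoGFP-negative replicate 3). The latter was 28 with 6 arrays, 23 at an adjusted p below 0.01, 370 with no minimum difference and 453 with the replicate number as a block; the block changed no call among the 10 genes. With no minimum difference the other comparisons called 24 and 27 of the other pathway genes and 4417 and 6508 of all genes. Of 471 values of the 10 genes under alternatives other than the thresholds, 442 kept direction and call, 8 lost and 1 gained a call, and 20 uncalled ones changed sign. For the lost calls the cause was not tested. Inhba, Fst and Bmp4 lay in the dim range, where the arrays limit what can be seen.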
